A study of Mus musculus with 24 samples.

Results

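The 10 genes described here encode enzymes that remove superoxide, hydrogen peroxide or lipid peroxides. They comprised 3 glutathione peroxidases (Gpx1, Gpx3, Gpx4), 3 superoxide dismutases (Sod1, Sod2, Sod3), catalase (Cat) and 3 peroxiredoxins (Prdx1, Prdx3, Prdx5). They were chosen by gene symbol as major members of these families, and each matched 1 row of the 14785 genes in the deposited expression table. After 7 days of ureter obstruction 8 of the 10 mRNAs were lower than in sham kidneys, led by Cat at 30.5% of its sham mean, where 17.8% of all genes were lower (36.5% after rescaling the libraries). At 4 weeks after reversal all 10 were below sham, at 58.1% to 83.8% of the sham means, where 11.6% of all genes were lower (31.1% after rescaling).

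The study measured polyA RNA in mouse kidney in 24 libraries, 6 groups of 4 animals. All animals were male C57/BL6 mice, given as 8 weeks old, and the labels name no transgene, mutant allele or drug in any group. The Sham group had sham surgery. In UUO2 and UUO7 the ureter of a kidney was ligated (unilateral ureteral obstruction, which dams up urine in that kidney) and the kidney was taken after 2 or 7 days. In R1W, R2W and R4W the ureter was ligated for 7 days and then reimplanted, and the kidney was taken 1, 2 or 4 weeks after that reversal. The sequenced animals were 4 of 10 per group, and how they were selected is not given in the sources used here. For R4W replicate 2 the treatment label says 2 weeks and the title 4 weeks, and the title was followed.

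Superoxide is released by mitochondria and by NADPH oxidases. Superoxide dismutases convert it to hydrogen peroxide, which is then split to water by catalase in peroxisomes, by glutathione peroxidases at the expense of glutathione, and by peroxiredoxins at the expense of thioredoxin. The proximal tubule of the kidney is dense in mitochondria and peroxisomes, and it is the main source of the glutathione peroxidase of blood plasma, GPX3. Obstruction injures tubules and brings in inflammatory cells and fibroblasts.

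The 3 glutathione peroxidases studied here are selenoproteins: a TGA codon inside the reading frame, normally a stop, is read as selenocysteine, the residue that does the catalysis. The codon lies at chr9:108339451-108339453 in exon 1 of Gpx1 (codon 47 of 201), at chr11:54907256-54907258 in exon 2 of Gpx3 (codon 73 of 226) and at chr10:80054737-80054739 in exon 3 of Gpx4 (codon 73 of 197), all on the plus strand of GRCm38 in the GENCODE M21 annotation. The following stretches of coding sequence show this codon in capitals, because it sets these 3 mRNAs apart from the other 7.
Gpx1: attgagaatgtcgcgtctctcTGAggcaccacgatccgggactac
Gpx3: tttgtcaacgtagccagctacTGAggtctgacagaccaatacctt
Gpx4: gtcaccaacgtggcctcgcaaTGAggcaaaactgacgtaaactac
In all 3 the selenocysteine codon is followed by ggc or ggt, which encode glycine.

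Antioxidant genes are often searched for the antioxidant response element, the binding motif of the stress factor NRF2, whose core is TGACNNNGC. This core was searched on both strands in the RefSeq promoters of GRCm38.p6, over the 250 bases before each start. It was found in 2 of the 9 enzymes with a promoter in the table (Sod3 had none) and in 11.5% of all 27025 genes (10.2% of all 32851 promoters), and 2 of 9 is too few to set against that share. The 2 matches lay within the stretches printed below, at Prdx1 (chr4:116685451-116685489, plus strand of the gene) and Sod1 (chr16:90220691-90220729, plus strand). The coordinates are those of the whole stretch, and the motif, in capitals, reads on the opposite strand in both.
Prdx1 promoter: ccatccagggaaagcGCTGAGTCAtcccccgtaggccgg
Sod1 promoter: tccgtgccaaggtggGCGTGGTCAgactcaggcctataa
A match describes letters and no measured binding.

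Levels are given as FPKM, fragments scaled by transcript length and library depth, so they can be compared between genes. Errors after means are SD over 4 animals. Low values moved in whole-read steps in the 20 libraries outside UUO2, and the steps imply 24200000 to 37000000 fragments per library. The 4 UUO2 libraries showed no such steps, so their depth is not known. The mitochondrial ribosomal RNA Mt-Rnr1 read 2343 to 2832 FPKM there and 342 to 709 FPKM in the other 20, and the library labels of UUO2 alone carry the letter B. The UUO2 group and its set of libraries therefore cannot be told apart, and this holds for every UUO2 value given here.

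FPKM is a share of the library, and the shares moved with obstruction. Over all genes the median log2 fold change from Sham to UUO7 was 0.42. Rescaled values are therefore given as well, for which libraries were divided by their median ratio to the geometric mean of each gene. This put that median at 0.01, and in R4W against Sham it moved the median from 0.30 to -0.01. A fold change is as deposited unless called rescaled. Tests were limma on log2(FPKM + 1) over all 14785 genes with Benjamini-Hochberg adjustment, and a gene counts as changed at an adjusted p under 0.05. In whole tissue, fewer cells of a type and less RNA per cell cannot be told apart.

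**Figure D1:**
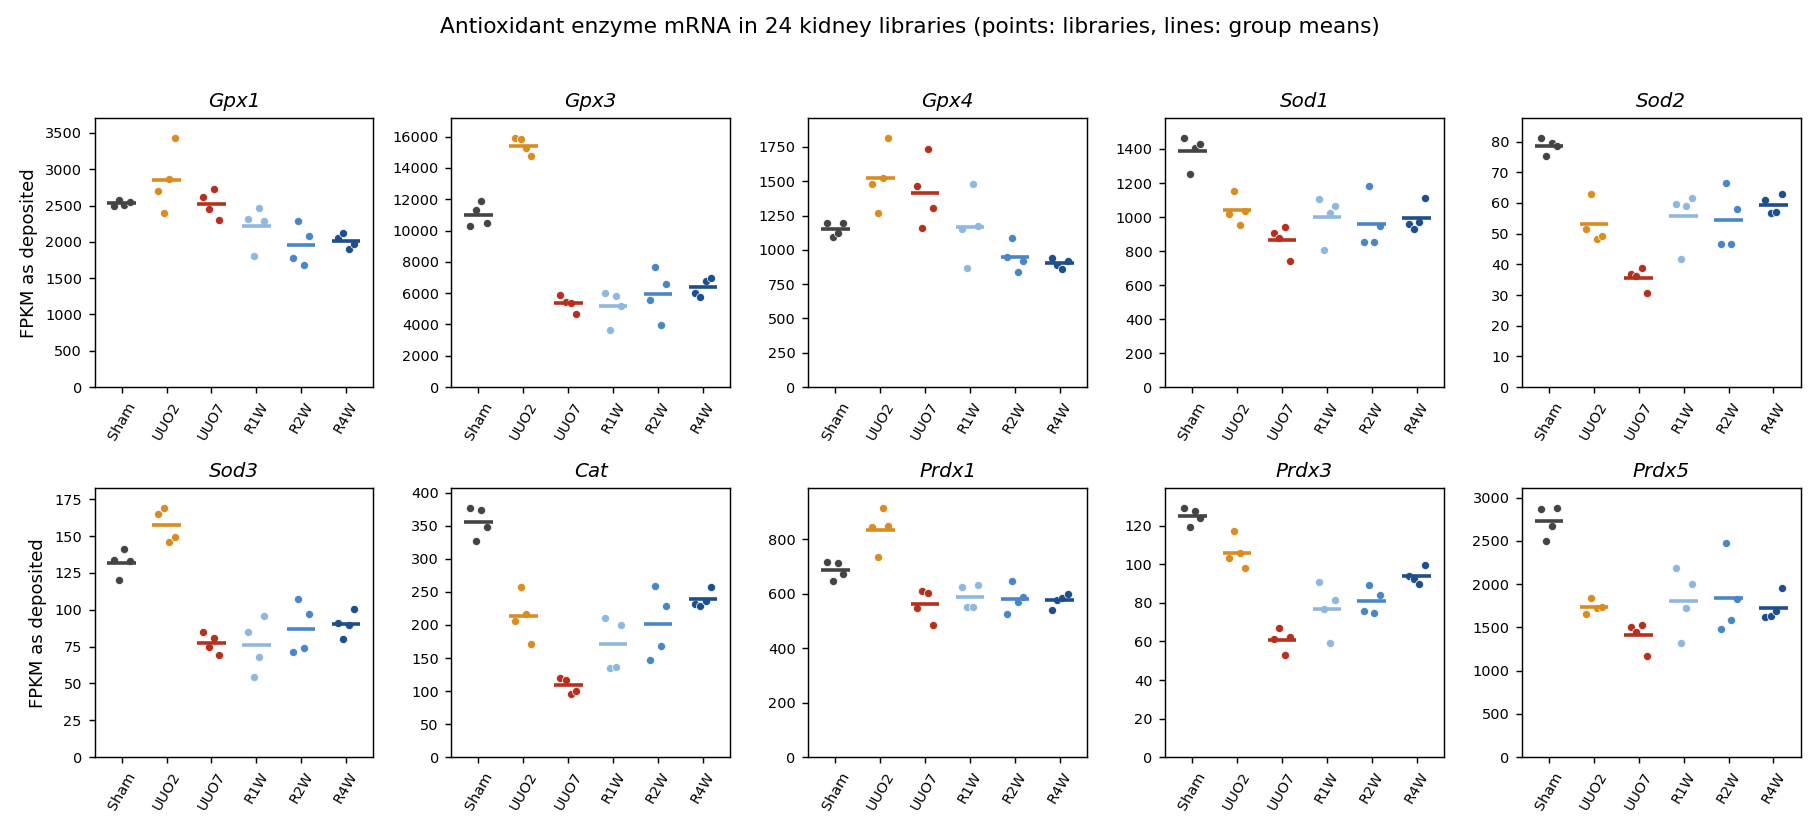
FPKM as deposited (vertical axes, from 0, a scale for each gene) in every library of the 6 groups, with points for libraries and lines for group means. Cat, Sod2, Prdx3, Prdx5, Sod1 and Prdx1 were lowest on average in UUO7, and Gpx3, Sod3, Gpx4, Gpx1 and Prdx1 had their highest group mean in UUO2.

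Among the glutathione peroxidases, Gpx3 (chr11:54902453-54910377, plus strand), which encodes the secreted plasma enzyme, was by far the most abundant. It read 10268, 11300, 11865 and 10472 FPKM in the 4 sham libraries and ranked 8 or 9 among all genes of each. In UUO2 it read 15906, 15826, 15256 and 14736 FPKM, and in UUO7 5897, 5462, 5383 and 4668 FPKM. Every UUO2 library was above every sham library, and every UUO7 library was below. Gpx3 was 0.49 higher in UUO2 than in Sham on the log2 scale (SE 0.16, limma adjusted p = 0.0165), a rise that rescaling left at 0.36 with an adjusted p of 0.128. In UUO7 it fell by 1.04 relative to Sham (SE 0.16, limma adjusted p = 6.98e-06), and by 1.53 after rescaling. After reversal the R1W libraries read 6034, 3625, 5804 and 5169 FPKM, the R2W libraries 5542, 7682, 3973 and 6582, and the R4W libraries 5998, 5787, 6783 and 6961. All 12 of these libraries were below all sham libraries, and as deposited each reversal group overlapped UUO7. After rescaling the R4W libraries lay above all UUO7 libraries, a difference of 0.36 that was not called (limma adjusted p = 0.124). The authors' deposited table calls Gpx3 higher there (0.32, adjusted p = 0.0132).

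Gpx3 alone made up 1.42% ± 0.116 (SD, n = 4) of the summed FPKM of sham libraries, more than the other 9 enzymes together at 1.18% ± 0.0286. Its share was 1.92% ± 0.0947 in UUO2, 0.700% ± 0.0567 in UUO7 and 0.875% ± 0.0742 in R4W. The share of the other 9 was 1.06% ± 0.0556 in UUO2, 0.923% ± 0.0518 in UUO7 and 0.917% ± 0.0278 in R4W. The total for all 10 therefore mainly followed Gpx3, and ran from 2.60% ± 0.105 in Sham to 2.97% ± 0.0428 in UUO2, 1.62% ± 0.0939 in UUO7 and 1.79% ± 0.0873 in R4W.

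Gpx1 (chr9:108338903-108340343, plus strand), the enzyme of cytosol and mitochondria, overlapped Sham at 2 and 7 days of obstruction in the values as deposited. It read 2494, 2582, 2511 and 2544 FPKM in Sham and 2620, 2456, 2726 and 2299 FPKM in UUO7, ranges that overlap. The log2 difference was -0.01 (SE 0.11, limma adjusted p = 0.959), and after rescaling -0.49 with an adjusted p of 0.00266. In R4W it read 2051, 2124, 1898 and 1965 FPKM, below every sham library, with a log2 difference of -0.33 (SE 0.11, limma adjusted p = 0.0128; -0.71 after rescaling). Its group means in order were UUO2, Sham, UUO7, R1W, R4W and R2W, and every neighbouring pair in this order overlapped.

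Gpx4 (chr10:80047166-80056439, plus strand), which reduces lipid peroxides in membranes and so guards against ferroptosis, overlapped Sham in UUO7 on the values as deposited. It read 1196, 1093, 1120 and 1194 FPKM in Sham and 1467, 1158, 1735 and 1306 FPKM in UUO7. The log2 difference was 0.28 (SE 0.14, limma adjusted p = 0.0639) as deposited and -0.20 (adjusted p = 0.255) after rescaling. Its direction thus turned with the scaling. Neither value was called, but a fit on the 2 groups compared called the deposited one (adjusted p = 0.0496). In UUO2 it read 1482, 1266, 1521 and 1814 FPKM and was 0.39 higher than Sham (SE 0.14, limma adjusted p = 0.0224). That call was lost after rescaling (0.26, adjusted p = 0.181), without Sham replicate 2 (0.37, adjusted p = 0.0514) and without UUO2 replicate 4 (0.30, adjusted p = 0.094). In R4W it read 942, 892, 858 and 919 FPKM, below every sham library, with a log2 difference of -0.35 (SE 0.14, limma adjusted p = 0.0302). Leaving out Sham replicate 1 or 4 or R4W replicate 2 or 3 put that adjusted p between 0.0565 and 0.0682 (differences of -0.33, -0.33, -0.34 and -0.33), and rescaling gave -0.73 with an adjusted p of 0.000479. Placing R4W replicate 2 in R2W, as its treatment label has it, also ended that call (-0.34, adjusted p = 0.0504) and made Gpx4 called in R2W (-0.30, adjusted p = 0.0446). A transcribed copy with a row of its own, Gpx4-ps2, read 8.23 ± 0.831 FPKM (SD, n = 4) in Sham and 11.9 ± 1.71 in UUO7, and reads shared between the 2 could have been assigned to either.

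Of the superoxide dismutases, Sod2 (chr17:13007839-13018119, plus strand), the manganese enzyme of the mitochondrial matrix, fell furthest at 7 days and was higher again a week after reversal. It read 81.1, 75.3, 79.7 and 78.6 FPKM in Sham and 51.5, 62.9, 48.4 and 49.3 FPKM in UUO2. In UUO7 it read 36.9, 36.1, 39.0 and 30.5 FPKM, below every library of the 2 earlier groups. The log2 difference from Sham was -0.57 in UUO2 (SE 0.12, limma adjusted p = 0.000567; -0.70 after rescaling) and -1.13 in UUO7 (SE 0.12, limma adjusted p = 3.79e-08; -1.60 after rescaling). In R1W it read 59.8, 41.8, 59.2 and 61.7 FPKM, all above UUO7, and was 0.62 higher than UUO7 (SE 0.12, limma adjusted p = 0.00305; 0.65 after rescaling). It read 46.6, 66.6, 46.8 and 58.0 FPKM in R2W and 61.0, 56.7, 57.0 and 63.1 in R4W. R4W remained below every sham library at 75.6% of the sham mean.

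Sod1 (chr16:90220742-90226322, plus strand), the copper and zinc enzyme of the cytosol, read 1464, 1254, 1409 and 1429 FPKM in Sham and 908, 876, 941 and 740 in UUO7. It fell by 0.68 on the log2 scale (SE 0.11, limma adjusted p = 1.07e-05) and by 1.17 after rescaling. In UUO2 it read 1016, 1152, 956 and 1037 FPKM, already below every sham library, with a log2 difference of -0.42 (SE 0.11, limma adjusted p = 0.00393; -0.55 after rescaling). The reversal means of 1000 ± 132, 959 ± 157 and 992 ± 80.6 FPKM (SD, n = 4 each) for R1W, R2W and R4W did not pass the test against UUO7 in the 2 pairs compared (R1W 0.20, adjusted p = 0.228, and R4W 0.20, adjusted p = 0.15).

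Sod3 (chr5:52363791-52371418, plus strand), the secreted dismutase of the extracellular matrix, followed, as deposited, the order of groups seen for Gpx3 and not that of Sod1 and Sod2. In both secreted enzymes the group means as deposited ran UUO2, Sham, R4W, R2W, UUO7, R1W, and the UUO2, Sham and R4W libraries did not overlap while each later neighbouring pair did. After rescaling the order differed, since the Sod3 mean was higher in R1W than in UUO7 and the Gpx3 mean lower. It read 134, 120, 141 and 133 FPKM in Sham, 165, 169, 146 and 149 in UUO2 and 84.7, 74.6, 80.6 and 69.0 in UUO7. The UUO2 libraries were above all sham libraries, but the difference of 0.25 did not pass the test (SE 0.14, limma adjusted p = 0.149), and after rescaling (0.12) the libraries overlapped. It was called in a fit on the 2 groups compared (adjusted p = 0.0198). In UUO7 it fell by 0.77 (SE 0.14, limma adjusted p = 4.44e-05; -1.25 after rescaling). R1W, at 85.2, 54.5, 68.0 and 95.6 FPKM, spanned the UUO7 range, with a log2 difference of -0.05 (adjusted p = 0.836).

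Cat (chr2:103453849-103485160, minus strand), the catalase of peroxisomes, had the lowest level relative to Sham of the 10 at both obstruction times. It read 377, 327, 373 and 349 FPKM in Sham, 206, 258, 217 and 172 in UUO2 and 120, 117, 96.0 and 101 in UUO7. The 3 groups did not overlap. It fell by 0.75 in UUO2 (SE 0.16, limma adjusted p = 0.000754) and by 1.71 in UUO7 (SE 0.16, limma adjusted p = 8.87e-09), which rescaling put at -0.89 and -2.19. After reversal Cat read 211, 135, 137 and 201 FPKM at 1 week, 147, 260, 169 and 229 at 2 weeks, and 232, 229, 237 and 257 at 4 weeks. The R4W libraries stood together above all R1W libraries and below all sham libraries, at 67.0% of the sham mean.

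**Figure D2:**
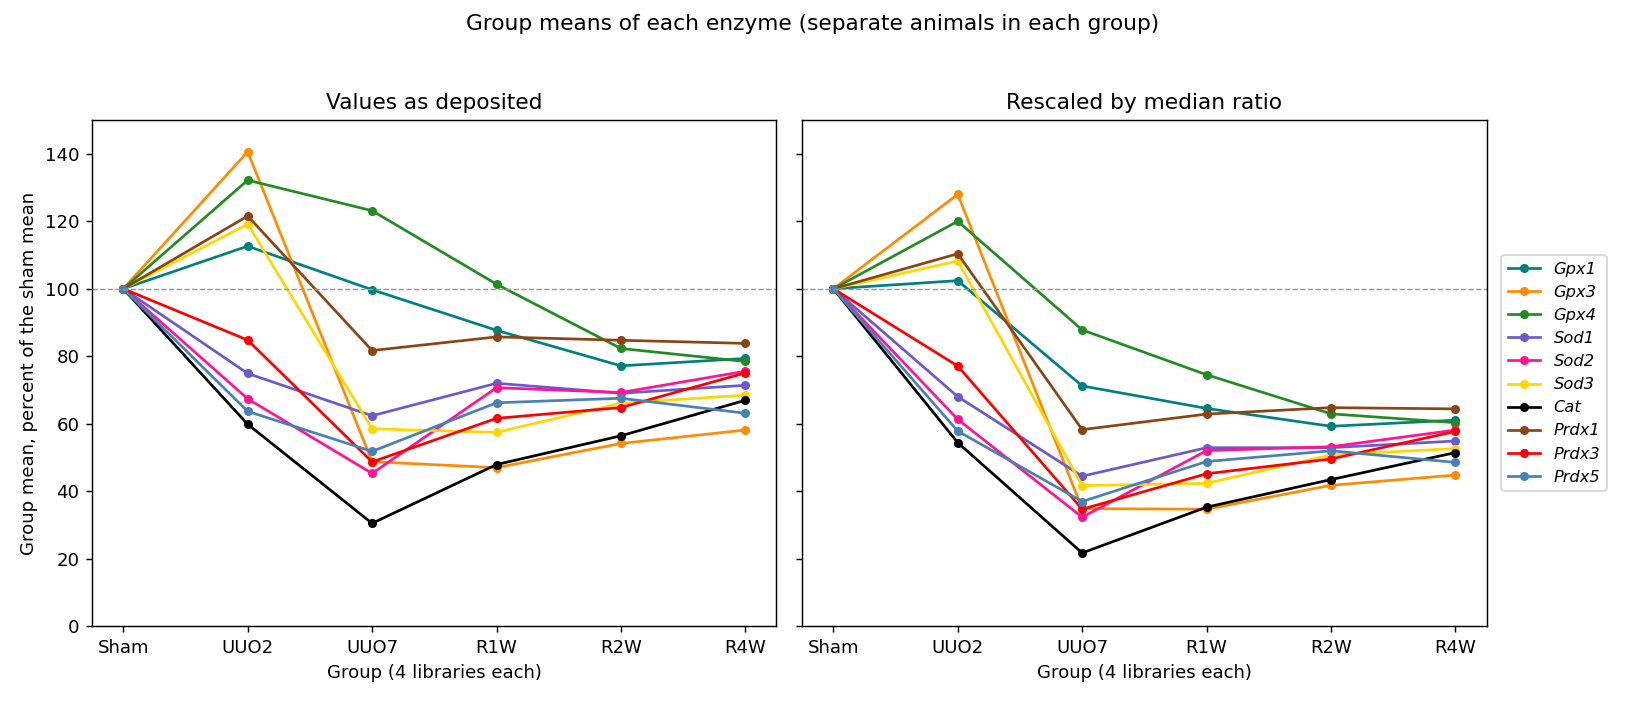
Group means as percent of the sham mean (vertical axis) for each enzyme in the 6 groups, as deposited (left) and after rescaling (right), with lines joining groups of separate animals. Cat reached 30.5% in UUO7 as deposited and 21.7% after rescaling, and all 10 enzymes were below 100% in R4W on both scales.

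The peroxiredoxins differed among themselves. Prdx5 (chr19:6906697-6910106, minus strand), found in mitochondria, peroxisomes and cytosol, was the most abundant at 2872, 2498, 2666 and 2876 FPKM in Sham. It read 1659, 1838, 1719 and 1731 FPKM in UUO2 and 1501, 1452, 1531 and 1171 in UUO7, all below Sham. It fell by 0.65 in UUO2 (SE 0.15, limma adjusted p = 0.00101; -0.78 after rescaling) and by 0.95 in UUO7 (SE 0.15, limma adjusted p = 5.28e-06; -1.44 after rescaling). In R4W it read 1620, 1631, 1684 and 1952 FPKM with a log2 difference from Sham of -0.67 (SE 0.15, limma adjusted p = 0.000549; -1.04 after rescaling). The gene shares 409 of its 2139 exon bases with Trmt112 on the opposite strand. The strand setting of the counting is not given in the sources used here, and Trmt112 read 47.6 ± 1.74 FPKM (SD, n = 4) in Sham and 75.5 ± 9.54 in UUO7, far below Prdx5.

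Prdx3 (chr19:60864051-60874556, minus strand), the peroxiredoxin of the mitochondrial matrix, read 129, 119, 128 and 124 FPKM in Sham and 103, 117, 106 and 98.1 in UUO2. The difference of -0.24 lay at the threshold (SE 0.10, limma adjusted p = 0.0503) and was called after rescaling (-0.37, adjusted p = 0.0131), without UUO2 replicate 2 (-0.29, adjusted p = 0.0254) and in the fit on the 2 groups compared (adjusted p = 0.016). Prdx3 was also called with a pseudocount of 0.1 or 10 and among genes averaging 10 FPKM or more (limma adjusted p = 0.0493, 0.047 and 0.0436). In UUO7 it read 61.5, 67.2, 52.9 and 62.1 FPKM and fell by 1.03 (SE 0.10, limma adjusted p = 8.22e-09; -1.51 after rescaling). R4W read 93.9, 92.5, 89.7 and 99.4 FPKM, above every UUO7 library and below every sham library.

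Prdx1 (chr4:116685544-116700822, plus strand), the cytosolic enzyme and a classical NRF2 target, moved least of these 3 peroxiredoxins in UUO7 against Sham. It read 717, 646, 713 and 673 FPKM in Sham, 843, 736, 914 and 849 in UUO2 and 549, 609, 602 and 486 in UUO7. It was 0.28 higher in UUO2 (SE 0.08, limma adjusted p = 0.00876) and fell by 0.30 in UUO7 (SE 0.08, limma adjusted p = 0.00296). Rescaling left 0.14 in UUO2 (adjusted p = 0.292) and -0.78 in UUO7 (adjusted p = 2.08e-06). The 3 reversal means lay between 576 and 589 FPKM, 83.8% to 85.7% of Sham.

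Across the set, 2 days of obstruction gave a mixed picture. Of the 10 enzymes 3 were higher than in Sham (Gpx3, Gpx4, Prdx1) and 4 lower (Sod1, Sod2, Cat, Prdx5), where 32.3% of all genes were called higher and 17% lower. None of the 3 rises was called after rescaling, which gave 0 higher and 5 lower (backgrounds 25.3% and 25.5%), the fifth being Prdx3. The authors' deposited table calls Gpx3 higher (0.37, adjusted p = 3.69e-05). That table has 1 of the 10 higher and 5 lower in UUO2, where it calls 26.7% of its genes higher and 24.4% lower. In 9 of the 10 the UUO2 and sham libraries did not overlap as deposited, Gpx1 being the exception, and 28.3% of all genes did not overlap upward and 14.4% downward. After rescaling 6 of the 10 did not overlap, Gpx3 upward and the 5 called downward, where 20.6% of all genes did not overlap upward and 21.1% downward. The median of the members was -0.04 on the log2 scale, against 0.09 for all genes.

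At 7 days 8 enzymes were lower than in Sham and 0 higher, where 17.8% of all genes were lower and 60.1% higher. After rescaling 9 were lower and 0 higher, against backgrounds of 36.5% and 36.5%. The member median was -0.86 against 0.42 over all genes, and after rescaling -1.35 against 0.01. The enzymes that did not pass were Gpx1 and Gpx4 as deposited, and Gpx4 alone after rescaling. The members ranked from Cat (-1.71) through Sod2 (-1.13), Gpx3 (-1.04), Prdx3 (-1.03), Prdx5 (-0.95), Sod3 (-0.77), Sod1 (-0.68) and Prdx1 (-0.30) to Gpx1 (-0.01) and Gpx4 (0.28). Without UUO7 replicate 2 Gpx4 was called higher (0.38, adjusted p = 0.0217), a direction that rescaling turns.

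In UUO7 7 enzymes were lower than in UUO2 and 0 higher, where 14.7% of all genes were lower and 52% higher. The 7 included Gpx3, Prdx1 and Sod3, whose UUO2 means were above Sham. Gpx3 fell most (-1.53, SE 0.16, limma adjusted p = 9.17e-08), followed by Sod3 (-1.02, SE 0.14, limma adjusted p = 2.59e-06) and Cat (-0.96, SE 0.16, limma adjusted p = 3.41e-05). After rescaling all 10 were lower in UUO7 than in UUO2, where 31.9% of all genes were lower and 30% higher. The call for Sod1 (-0.27, adjusted p = 0.0408) was lost without any of UUO2 replicates 1, 2 and 4 or UUO7 replicates 2 and 4, with adjusted p between 0.0578 and 0.153 and differences between -0.28 and -0.19.

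In the first week after reversal 3 enzymes rose relative to UUO7 and 0 fell, where 6.47% of all genes rose and 8.04% fell. The 3 were Sod2 (0.62), Cat (0.62, SE 0.16, limma adjusted p = 0.016) and Prdx3 (0.32, SE 0.10, limma adjusted p = 0.0324). The secreted enzymes Gpx3 (-0.08, adjusted p = 0.798) and Sod3 (-0.05) did not pass, with R1W libraries on either side of UUO7. The same 3 genes passed after rescaling (0.65, 0.66 and 0.36), where 7.26% of all genes rose and 7.14% fell. The authors' deposited table calls 2 higher, Sod2 and Cat, and 0 lower, where it calls 10.3% of its genes higher and 11.2% lower. Prdx3 was not called in the authors' deposited table (0.37, adjusted p = 0.0642), nor in a fit on the 2 groups compared (0.32, adjusted p = 0.142). Cat lost its call without UUO7 replicate 3 (0.57, adjusted p = 0.0527), R1W replicate 1 (0.51, 0.062) or R1W replicate 4 (0.54, 0.0621). These 3 removals left 1 call, Sod2. Prdx3, whose libraries overlapped, also lost its call without UUO7 replicate 1 or 4 or R1W replicate 2, and its differences over these 6 removals lay between 0.24 and 0.33 (adjusted p 0.054 to 0.12). Without R1W replicate 3 Gpx4 was called lower (-0.41, adjusted p = 0.039), and without R1W replicate 2 Prdx5 was called higher (0.48, adjusted p = 0.025).

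By 4 weeks 3 enzymes were higher than in UUO7 (Sod2 0.73, Cat 1.13, Prdx3 0.62) and 2 lower (Gpx4 -0.63, Gpx1 -0.33), where 17.6% of all genes were higher and 30.8% lower. Sod2, Cat and Prdx3 had adjusted p values of 8.07e-05, 2.61e-05 and 5.61e-05, and Gpx4 0.000856. Rescaling gave the same 3 higher and Gpx4 alone lower, against 25.1% and 23.2% of all genes. The authors' deposited table has 6 higher, with Gpx3, Sod3 and Prdx5 besides, and Gpx1 alone lower, where it calls 26% of its genes higher and 27.3% lower. In the authors' deposited table Gpx4 was not called here (-0.13, adjusted p = 0.284). The fall of Gpx1 (adjusted p = 0.0207) was not called after rescaling (-0.22, adjusted p = 0.191), nor without UUO7 replicate 1 (-0.31, 0.0507), UUO7 replicate 3 (-0.29, 0.0645) or R4W replicate 3 (-0.30, 0.0541). From R1W to R4W Cat (0.51, SE 0.16, limma adjusted p = 0.0362) and Prdx3 (0.30, SE 0.10, limma adjusted p = 0.0405) rose, where 5.06% of all genes rose and 14.1% fell. Both also rose after rescaling (0.58 and 0.37; 8.67% of all genes rose and 8.6% fell). The authors' deposited table calls Cat alone (0.47, adjusted p = 0.0353; Prdx3 0.35, adjusted p = 0.0836), where it calls 8.75% of its genes higher and 9.13% lower. In the fit on the 2 groups compared neither was called (adjusted p = 0.0805 for Cat and 0.14 for Prdx3). These 2 calls were marginal: neither was called without R1W replicate 2, R1W replicate 3 or any of the 4 R4W replicates. Over those 6 removals Cat lay between 0.41 and 0.53 (adjusted p 0.0521 to 0.152) and Prdx3 between 0.18 and 0.32 (adjusted p 0.0554 to 0.193). Without R1W replicate 2 the single call was Gpx4, lower in R4W (-0.48, adjusted p = 0.0176).

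Most enzymes stayed below Sham after reversal. Of the 10 enzymes 8 were lower in R1W, 9 in R2W and 10 in R4W, with 0 higher in each. In R1W the 2 not called were Gpx1 and Gpx4, and the Gpx4 mean of 1166 FPKM was at 101% of Sham. Over all genes 14.7%, 12.9% and 11.6% were lower and 59.4%, 56.1% and 54.8% higher. After rescaling all 10 were lower in each of the 3 groups, where 34.6%, 32.5% and 31.1% of all genes were, and 33.7%, 31.1% and 28.9% were higher. The groups share the same sham libraries, so these 3 counts are not independent. At R4W no library of any of the 10 enzymes reached its lowest sham library, whereas 11.6% of all genes lay wholly below and 52.9% wholly above Sham. Gpx3 remained lowest relative to Sham (58.1%, log2 difference -0.78, SE 0.16, limma adjusted p = 0.000322; -1.16 after rescaling), followed by Prdx5 (63.1%), Cat (67.0%) and Sod3 (68.5%). Sod2 (75.6%), Prdx3 (75.1%) and Sod1 (71.4%) came next, and Gpx4 (78.5%), Gpx1 (79.3%) and Prdx1 (83.8%) were nearest to Sham. Prdx1 lost its call in R1W (-0.22, adjusted p = 0.0205) without Sham replicate 1 (-0.20, 0.0559), Sham replicate 3 (-0.21, 0.0533), R1W replicate 2 (-0.19, 0.0616) or R1W replicate 3 (-0.19, 0.0592), and in R2W (-0.24, adjusted p = 0.0144) without R2W replicate 1 (-0.19, 0.0609). Gpx4 was not called in R2W (-0.29, adjusted p = 0.0696) and was called without R2W replicate 2 (-0.35, adjusted p = 0.0374) and in the fit on the 2 groups compared (adjusted p = 0.0215).

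A minimum of 1 in absolute log2 fold change, on top of the adjusted p, left fewer calls. As deposited it left 4 of the 10 enzymes in UUO7 against Sham, all lower, where 27.6% of all genes were called in either direction, and after rescaling 7, where 24.1% were. In UUO7 against UUO2 it left 2 (16.2% of all genes) and after rescaling 4 (14.2%), all lower. In R1W against Sham it left 2 (20.4%) and after rescaling 5 (18.8%), all lower. In R2W and R4W against Sham it left 0 and 0 (16.6% and 14.8%) and after rescaling 3 and 2, lower (15.4% and 13.1%). In R4W against UUO7 Cat alone passed, higher, on both scales (6.03% and 5.8%). On both scales 0 passed in UUO2 against Sham (8.75% and 9.06%), R1W against UUO7 (1.33% and 1.26%) and R4W against R1W (0.771% and 0.805%).

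The authors' deposited table gives its own log2 fold changes and adjusted p values. In UUO7 against Sham that table has all 10 enzymes lower, with log2 fold changes of -2.17 for Cat, -1.64 for Sod2, -1.55 for Prdx3, -1.54 for Gpx3 and -0.57 for Prdx1. Its calls covered 37.9% of its genes in that direction. For 6 of the 10 enzymes the authors' deposited table stayed within 0.0786 of the rescaled FPKM fold change in all 9 comparisons, and the widest gaps were 0.16 for Prdx5, 0.28 for Prdx1, 0.29 for Cat and 0.46 for Gpx4. For Gpx4 the authors' deposited table has -0.66 in UUO7 (adjusted p = 3.33e-10), compared with -0.20 in rescaled and 0.28 in deposited FPKM. In R4W against Sham the Gpx4 value in the authors' deposited table was -0.75 and the rescaled value -0.73. In R1W against Sham the authors' deposited table has Gpx4 at -0.78 (adjusted p = 2.37e-08), compared with -0.45 in rescaled FPKM and a deposited mean at 101% of Sham. The cause of the Gpx4 gap was not tested.

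**Figure D3:**
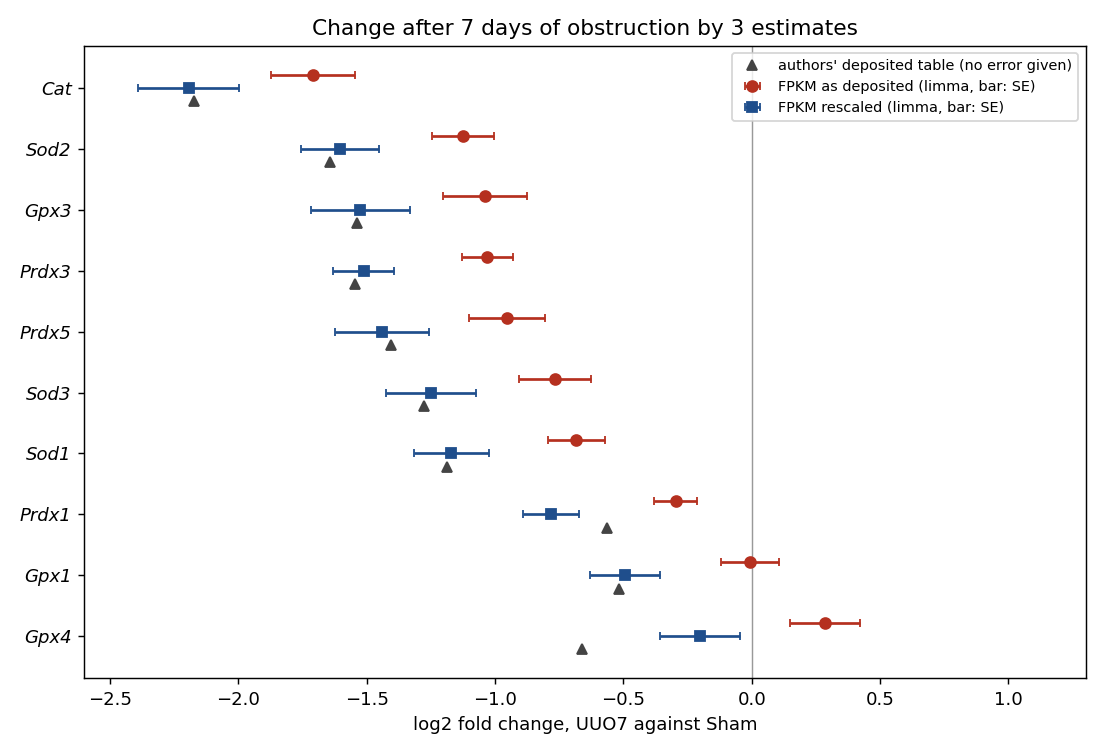
Log2 fold change in UUO7 against Sham (horizontal axis) for each enzyme from FPKM as deposited and rescaled (limma, bars are SE) and from the authors' deposited table (no error given). Cat lies furthest left in all 3, and for Gpx4 the values are 0.28, -0.20 and -0.66.

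Other genes of the same pathways were examined from lists by function. Each count for UUO7 against Sham stands beside 60.1% of all genes higher and 17.8% lower as deposited, and 36.5% and 36.5% after rescaling. For R4W against Sham the shares over all genes were 54.8% and 11.6% as deposited, and 28.9% and 31.1% after rescaling. Each list median in UUO7 stands beside 0.42 over all genes as deposited and 0.01 after rescaling. The 6 further glutathione peroxidases and peroxiredoxins with a row moved in both directions. In UUO7 4 of the 6 were higher than in Sham, a share near that of all genes as deposited, and 2 lower, with the same counts after rescaling and list medians of 0.93 and 0.46. Gpx7 and Gpx8, peroxidases of the endoplasmic reticulum, rose from 1.12 ± 0.300 to 17.3 ± 2.27 and from 10.6 ± 3.22 to 51.4 ± 4.79 FPKM (SD, n = 4), and Prdx4, the peroxiredoxin of the same compartment, from 16.1 ± 0.980 to 35.4 ± 3.42. Their log2 fold changes were 3.12, 2.21 and 1.09 (2.78, 1.75 and 0.62 after rescaling). Gpx6, a close relative of Gpx3, fell from 36.2 ± 5.30 to 1.92 ± 0.194 FPKM, and Prdx6 from 187 ± 3.06 to 163 ± 9.10 (-0.20, and -0.69 after rescaling).

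Genes that supply glutathione, the reductant of the glutathione peroxidases, were lower in UUO7. Of 8 genes with a row for making, recycling and salvaging glutathione 7 fell and 0 rose (8 and 0 after rescaling), with list medians of -0.97 and -1.46. The widest falls were the salvage genes of the tubule brush border, Dpep1 (-1.48), Ggt1 (1008 ± 86.2 to 412 ± 78.9 FPKM, -1.30) and the cystine transporter gene Slc3a1 (-1.29). In R4W 7 of the 8 were still lower. In the thioredoxin and glutaredoxin system 5 of 13 genes were higher and 4 lower (3 and 8 after rescaling), with list medians of 0.15 and -0.32, where 60.1% of all genes were higher and 17.8% lower (36.5% each after rescaling). Txnip, an inhibitor of thioredoxin, rose from 146 ± 31.9 to 489 ± 65.2 FPKM (1.76), and Srxn1, which repairs overoxidised peroxiredoxins, from 25.7 ± 2.74 to 41.9 ± 3.71 (0.68, and 0.21 after rescaling). Sesn1 rose as well (1.26, and 0.82 after rescaling), and the mitochondrial pair Txn2 (-0.24) and Txnrd2 (-0.31) and the glutaredoxin Glrx (-0.26) fell, by wider margins after rescaling (-0.73, -0.78 and -0.73).

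Of 11 genes with a row for metal delivery and selenoprotein synthesis 4 were higher and 7 lower in UUO7, and 1 and 9 after rescaling, with list medians of -0.42 and -0.88. Sephs2, which makes the selenium donor, fell from 164 ± 13.5 to 70.6 ± 5.24 FPKM (-1.21), Selenop, the plasma selenium carrier, from 977 ± 96.4 to 555 ± 28.1 (-0.81), and Ccs, the copper chaperone of Sod1, from 151 ± 7.53 to 85.8 ± 5.55 (-0.81). After rescaling Selenop was at -1.30 and Ccs at -1.29. The copper chaperone Atox1 rose (0.82, and 0.33 after rescaling). Trnau1ap, which assists selenocysteine insertion, was 0.59 higher as deposited and not called after rescaling (0.11, adjusted p = 0.284).

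Sources of superoxide and hydrogen peroxide moved in both directions. Of 14 with a row 6 were higher in UUO7 and 7 lower (5 and 8 after rescaling), with list medians of -0.48 and -0.95. Risers included the NADPH oxidase subunits of phagocytes Ncf1 (0.543 ± 0.210 to 10.5 ± 0.965 FPKM, 2.90) and Ncf4 (2.81). Fallers included the peroxisomal acyl-CoA oxidases Acox3 (118 ± 12.6 to 36.5 ± 3.80 FPKM, -1.66) and Acox2 (-1.58), which generate the hydrogen peroxide that catalase removes. Of 19 genes of peroxisome assembly and membrane 14 fell and 1 rose, and after rescaling 19 fell, with list medians of -0.38 and -0.85. The riser, Pex26, was 0.19 higher as deposited and 0.25 lower (-0.25) after rescaling. Pxmp2 (-1.20), Abcd3 (-1.17) and Pex11a (-0.89, and -1.36 after rescaling) fell most. In R4W 8 of the 19 were lower than Sham and 1 higher, and 19 were lower after rescaling.

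**Figure D4:**
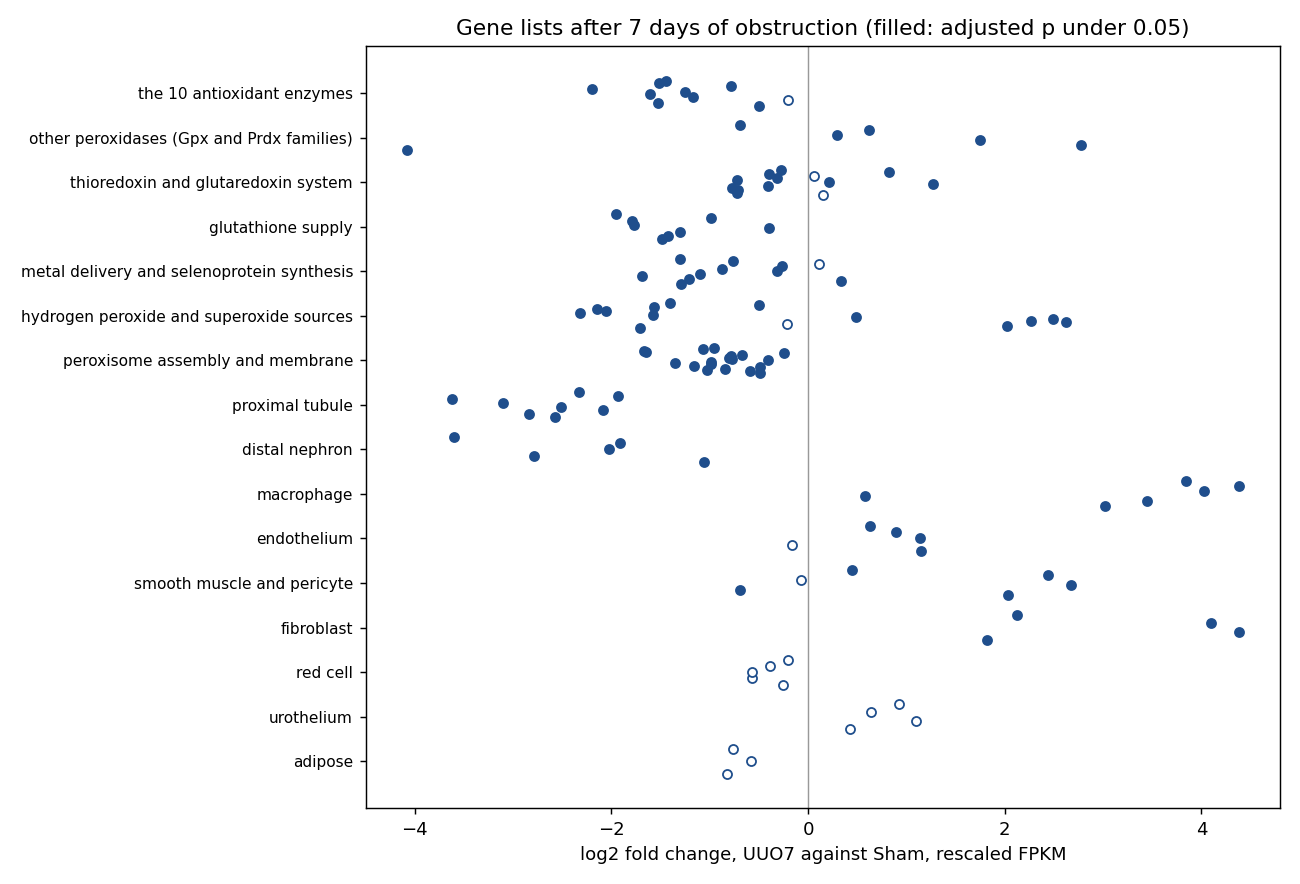
Log2 fold change in UUO7 against Sham on rescaled FPKM (horizontal axis) for every gene of each list with a row, where filled points passed an adjusted p under 0.05. The 10 enzymes, glutathione supply and peroxisome genes lie left of 0, the proximal tubule markers further left, and macrophage and fibroblast markers right.

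Markers of cell types moved in the same samples, and their part in the enzyme results was not tested. Marker counts for UUO2 stand beside 32.3% of all genes higher and 17% lower as deposited, and 25.3% and 25.5% after rescaling. All 8 proximal tubule markers fell in UUO7, led by Slc22a8 (-3.16), Slc22a6 (-2.62) and Lrp2 (-2.36). Their summed level was 3742 to 4284 FPKM in Sham, 1556 to 2679 in UUO2, 888 to 1085 in UUO7, 1278 to 2030 in R1W, 1387 to 2563 in R2W and 2017 to 2764 in R4W. None of these kidney markers was at 0 in all libraries of any group. In R4W 6 of the 8 were still lower than Sham. In UUO2, where the Gpx3 and Sod3 means stood above Sham (Sod3 not called, Gpx3 not called after rescaling), 7 of the 8 were lower. All 5 distal nephron markers fell in UUO7, Calb1 most (-3.13), then Slc12a1 (-2.31) and Slc12a3 (-1.54), and 0 of the 5 differed from Sham in R4W. In UUO2 4 of the 5 were lower. Their sum was 2476 to 3048 FPKM in Sham, 973 to 2233 in UUO2, 1306 to 1672 in UUO7 and 2431 to 3148 in R4W.

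Among the other marker lists, those of macrophages and fibroblasts were wholly higher in UUO7. All 6 macrophage markers rose in UUO7, with C1qa at 4.84, Lyz2 at 4.49 and C1qb at 4.30. They summed to 48.7 to 81.9 FPKM in Sham, 82.4 to 189 in UUO2, 937 to 1126 in UUO7, 967 to 1376 in R1W, 815 to 2005 in R2W and 690 to 1368 in R4W. All 4 fibroblast markers rose in UUO7, with Col1a1 at 4.77, Col1a2 at 4.54 and Dcn at 2.58, and their sum went from 13.9 to 37.0 FPKM in Sham to 278 to 348 in UUO7 and 133 to 230 in R4W. Of the endothelial markers 4 of 5 rose (Pecam1 1.61, Cdh5 1.56, Tie1 1.33), with sums of 46.7 to 85.1 FPKM in Sham and 130 to 146 in UUO7. Of the smooth muscle and pericyte markers 4 of 6 rose (Tagln 3.15, Pdgfrb 2.86, Acta2 2.50), with sums of 43.7 to 89.2 FPKM in Sham and 296 to 395 in UUO7. The red cell list had 4 of 5 lower in UUO2 and 0 of 5 called in UUO7 (sums of 312 to 667 FPKM in Sham, 95.4 to 348 in UUO2 and 361 to 494 in UUO7). The urothelium list had 1 of 4 called higher in UUO7 as deposited and 0 after rescaling, and 4 of 4 higher than Sham in R1W, R2W and R4W (2, 4 and 4 after rescaling). Its sums were 1.42 to 30.5 FPKM in Sham, 9.52 to 23.5 in UUO7 and 36.8 to 117 in R4W. Over all genes 59.4% were higher than Sham in R1W and 56.1% in R2W (33.7% and 31.1% after rescaling). Of the adipose list 0 of 3 genes with a row were called against Sham in any group. In R4W against UUO7 2 of the 3 were higher on both scales, where 17.6% of all genes were (25.1% after rescaling). The adipose sums were 0.330 to 28.8 FPKM in Sham, 0.640 to 1.95 in UUO7 and 0.380 to 210 in R4W. Adipoq was listed at 0 in all UUO2 and all R1W libraries. In UUO2 4 of the 6 macrophage markers were higher and 1 lower, 2 of the 4 fibroblast markers higher and 0 lower (2 and 1 after rescaling), 3 of the 5 endothelial markers lower (5 after rescaling), and 3 of the 6 smooth muscle and pericyte markers higher and 3 lower (2 and 3 after rescaling). These UUO2 counts stand beside 32.3% of all genes higher and 17% lower (25.3% and 25.5% after rescaling). In R4W all 6 macrophage, 4 fibroblast, 5 endothelial and 6 smooth muscle and pericyte markers were higher than in Sham (6, 4, 4 and 5 after rescaling).

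Within groups, the enzymes and these marker sums were extreme in the same library in some groups and not in others. In R1W replicate 2 was the lowest library for 9 of the 10 enzymes. It also had the lowest proximal tubule sum of its group (1278 FPKM) and the highest macrophage sum (1376 FPKM), and the enzymes made up 1.29% of its FPKM, compared with 1.61% to 1.84% in the other 3. In R2W replicate 2 was the highest library for all 10 enzymes, with the highest tubule sum (2563 FPKM) and the lowest macrophage sum (815 FPKM). In R4W replicate 4 was highest for 8 enzymes, with the highest tubule sum (2764 FPKM) and the lowest macrophage sum (690 FPKM). In UUO7 replicate 4 was lowest for 7 enzymes, with the lowest tubule sum (888 FPKM) and the highest macrophage sum (1126 FPKM). In R4W replicate 2 was lowest for 5 enzymes, with the lowest tubule sum (2017 FPKM) and the highest macrophage sum (1368 FPKM). In Sham replicate 2 was lowest for 8 enzymes, with the lowest tubule sum (3742 FPKM) and the highest macrophage sum (81.9 FPKM).

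In other libraries the extremes matched in part or not at all. Sham replicate 1 was highest for 6 enzymes, while replicate 3 had the highest tubule sum (4284 FPKM) and the lowest macrophage sum (48.7 FPKM). In UUO7 replicate 3 was highest for 5 enzymes with a tubule sum of 902 FPKM, below the 1085 FPKM of replicate 1. In R2W replicate 1 was lowest for 6 enzymes and highest in macrophage sum (2005 FPKM), while replicate 3 had the lowest tubule sum (1387 FPKM). In UUO2 replicate 2 was highest for 6 enzymes and in tubule sum (2679 FPKM), while replicate 3 had the lowest macrophage sum (82.4 FPKM). Enzymes of a library share its total, so these counts are a description, and no test was made.

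Genes with the most similar course were sought among the 7341 genes that averaged 10 FPKM or more, by the mean absolute difference of the 5 log2 fold changes against Sham. All 5 share the sham libraries, and the measure says nothing of shared function. Cat was closest to Scp2 (0.0516), Aldh5a1 (0.0556) and Suclg1 (0.0568). Sod2 was closest to Uqcrfs1 (0.0276), Sucla2 (0.0444) and Idh3b (0.0538), and Prdx3 to Srr (0.0391), Galm (0.0448) and Fech (0.0481). Gpx3 was closest to Slc7a7 (0.0655), Enpp6 (0.103) and Cda (0.162), and Sod3 to Cldn2 (0.0788), Espn (0.0801) and Mpp1 (0.0833). Sod1 was closest to Nit1 (0.0347), Prdx5 to Tmem189 (0.0375), Prdx1 to Cpeb4 (0.0392), Gpx1 to Atp6v1b2 (0.0517) and Gpx4 to Cks2 (0.0525).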

How the data were processed

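PolyA RNA-seq of mouse kidney was analysed in 24 libraries, 6 groups of 4 animals, grouped by sample title. The authors deposited a table with a value per gene and library and, per the file headers, gave no unit, so FPKM was inferred from the values. It also holds the authors' log2 fold changes and adjusted p-values, as deposited. The submitters' processing notes name FastQC, Bowtie2, RSEM, DESeq2 and mm10 without roles or versions. No counts were available, so the depth of the 20 libraries outside UUO2 was read from whole-read steps, with an assumed fragment length of 150 bases. Genes with a mean under 1 FPKM are not analysed here.

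Tests used limma 3.58.1 (R 4.3.3; moderated statistics with an intensity trend) on log2(FPKM + 1), which understates changes of low genes, with all libraries in a single fit, a coefficient per group and Benjamini-Hochberg adjustment over 14785 genes. The script was tested on simulated data. Python 3.11.15 made the summaries. The members and gene lists were chosen with earlier results of these data known. From each list up to 3 called risers and 3 called fallers in UUO7 with libraries that do not overlap were named, and for likeness the closest 3 genes. Of the genes this rule names, 2 are not reported here. Alternatives were rescaling, a pseudocount of 0.1 or 10, genes averaging 10 FPKM or more, 2-group fits, a replicate block, R4W replicate 2 in R2W, a log2 fold change of at least 1, a fit without UUO2 and the removal of each replicate. Of the coordinates, given as deposited for mm10, 8 of 10 equal GENCODE M21; those of Sod1 and Sod2 differ.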

Additional observations from a re-analysis of the deposited data

Results flagged for a closer look

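In R1W replicate 2 Sod2 read 41.8 FPKM (41.79), far below the 59.2 to 61.7 FPKM of the other 3 R1W libraries. The gap to the nearest of them exceeded the 95% limit for a group of 4. This was 1 flag in 60 checks of 10 enzymes in 6 groups, where chance gives about 3. The same library was lowest in its group for 9 of the 10 enzymes.

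Gpx3 and Prdx1 were called in opposite directions against Sham at 2 and at 7 days of obstruction as deposited. The log2 difference of UUO7 from UUO2 was -1.53 for Gpx3 and -0.57 for Prdx1. Since the same libraries picked these 2 genes, the differences are a description and no independent test. UUO7 was below UUO2 in all 4 libraries of each, and the differences were -1.88 and -0.93 after rescaling. The rises at 2 days were not called after rescaling, and the UUO2 group cannot be told apart from its set of libraries.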

How the results depend on the processing

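When calls also had to reach 1 in absolute log2 fold change, the enzymes called numbered 0 in UUO2 against Sham, 4 in UUO7 against Sham, 2 in UUO7 against UUO2, 0 in R1W against UUO7, 1 in R4W against UUO7, 0 in R4W against R1W, 2 in R1W against Sham, and 0 in R2W and 0 in R4W against Sham. The same minimum on rescaled values, an alternative chosen after seeing the data, gave 0 in UUO2 against Sham, 7 in UUO7 against Sham, 4 in UUO7 against UUO2, 0 in R1W against UUO7, 1 in R4W against UUO7, 0 in R4W against R1W, and 5, 3 and 2 in R1W, R2W and R4W against Sham. The fit on the 2 groups compared ended 3 enzyme calls and added 6, among them Prdx5 in UUO7 against UUO2 (-0.30, adjusted p = 0.0257) and in R4W against UUO7 (0.29, adjusted p = 0.0493). R4W against R1W gave 0 in that fit and 1 with R4W replicate 2 in R2W, a placement that gave 10 in R2W and 9 in R4W against Sham. Removal of a replicate gave 6 to 8 enzymes in UUO2 against Sham, 8 to 9 in UUO7 against Sham, 6 to 7 in UUO7 against UUO2, 1 to 4 in R1W against UUO7, 4 to 5 in R4W against UUO7, 0 to 2 in R4W against R1W (without R1W replicate 2 a single call, lower), and 7 to 8, 8 to 10 and 9 to 10 in R1W, R2W and R4W against Sham. Values that changed sign were uncalled as deposited. Rescaling turned Gpx4 in UUO7 against Sham to -0.20 and, in R4W against R1W, Sod1 to 0.067, Prdx1 to 0.041 and Prdx5 to 0.024. With R4W replicate 2 in R2W Sod1 was 0.025 there. Removals gave ranges of -0.045 to 0.037 for Gpx1 in UUO7 against Sham. Without R1W replicate 2 Gpx3 and Sod3 in R1W against UUO7 turned to 0.085 and 0.092, within ranges of -0.16 to 0.085 and -0.17 to 0.092. Prdx1 in R4W against UUO7 ranged from -0.025 to 0.082 and Gpx4 in R1W against Sham from -0.13 to 0.13. In R4W against R1W the ranges were -0.10 to 0.046 for Sod1, -0.019 to 0.16 for Sod2, -0.063 to 0.0030 for Prdx1 and -0.19 to 0.053 for Prdx5. Of 59 called enzyme differences, 55 kept direction and call after rescaling, and 432 of 472 values kept both when a replicate was removed. Pseudocounts of 0.1 and 10 and a minimum mean of 10 FPKM kept all 59, and each added 1 call, Prdx3 in UUO2 against Sham.

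The labels give no pairing of samples by replicate number. Same-numbered deviations from the group means correlated between -0.33 and 0.45, and in no comparison did every pair exceed 0.1. Such correlations cannot exclude a shared day or preparation. With the replicate number as a block, 8 enzymes were called in UUO2 against Sham (Prdx3 gained a call, -0.24, adjusted p = 0.0379), 8 in UUO7 against Sham, 6 in UUO7 against UUO2 (Sod1 lost its call, -0.27, adjusted p = 0.0601), 3 in R1W against UUO7, 5 in R4W against UUO7, 2 in R4W against R1W, and 8, 9 and 10 in R1W, R2W and R4W against Sham. Among the alternatives, shares over all genes are given only for rescaling and the minimum fold change. Counts under the other settings are of the enzymes alone and cannot be set against all genes here. Groups of 4 and the absence of counts limit the precision of each value, and changes of transcript use or protein were not measured.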
